A study of Mus musculus with 6 samples.

Results

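The genes described here are 10 feedback regulators and direct targets of Wnt signalling, Axin2, Nkd1, Lgr5, Rnf43, Znrf3, Tnfrsf19, Apcdd1, Notum, Sp5 and Dkk1, of 21887 protein-coding genes in all. They are textbook Wnt target genes, listed by name with earlier results of these data known, and were looked up in 4 lists of called peaks by Entrez and Ensembl identifier. Of the 10, 7 had a row of their own in a list, and the other genes (Notum, Sp5 and Dkk1) were located by their RefSeq positions (GRCm38.p6).

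The KO libraries came from Tcf7-/- mice of strain B6.129 Tcf7Tm1Cle, and the WT libraries from Tcf7+/+ mice of strain B6, so strain and genotype cannot be told apart. Both were natural killer (NK) cells of the spleen, lymphocytes that kill infected or transformed cells, and both were expanded with the cytokine IL-2 (500 ng/mL) over 5 days. One antibody bound Tcf1, the DNA-binding protein that Tcf7 encodes, and the other H3K4me3, trimethylated lysine on histone H3, which marks active promoters. With 1 library for each antibody and genotype, differences have no replicate check and were not tested. How many mice went into a library was not given in the sources used here.

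In Wnt signalling, a secreted Wnt protein bound by a Frizzled receptor stabilises beta-catenin, which joins Tcf/Lef proteins on DNA and switches target genes on. Without beta-catenin the same Tcf/Lef proteins can hold these genes off. Many of the targets encode brakes on the pathway, so their chromatin is a common readout of Tcf/Lef activity in any tissue. In the lymphoid lineage Tcf1 is known chiefly for T cell development and for early steps of NK cell development.

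The KO Tcf1 list held 5139 peaks and the WT Tcf1 list 866. The H3K4me3 lists held 11074 peaks in KO and 13771 in WT. Tags are the reads counted in a called peak, not scaled to depth, and the depth of the libraries is unknown. The lists hold called peaks alone, down to 10 tags for Tcf1 in KO, 13 for Tcf1 in WT, 22 for H3K4me3 in KO and 17 for H3K4me3 in WT, so a site with no peak has an unknown number of tags, not 0. The score of a peak is the authors' 10 times negative log10 p, and like the score, the enrichment over background (fold) and the false discovery rate (FDR) come from the authors' lists. Intervals cover counting error only, at 95%. H3K4me3 marked the promoters of 12 of 12 NK cell markers in each genotype, among them Ncr1, Klrb1c and Eomes, with 18907 tags in KO and 15747 in WT. It marked 1 of 10 T cell markers in KO (Bcl11b) and 3 in WT (also Cd3e and Cd3d), with 647 tags in KO and 656 in WT. Of B cell markers 0 of 6 were marked in either genotype, of myeloid markers 0 of 6 in KO and 1 in WT, and of stromal and epithelial markers 2 of 8 in each, with 502 tags in KO and 578 in WT. The T cell markers unmarked in both were Cd3g, Cd4, Cd8a, Cd8b1, Cd5, Cd6 and Themis. The part of these other cell types in the results below was not tested. Peak lists do not check the deletion of Tcf7, whose TSS carried H3K4me3 with 535 tags in KO and 525 in WT.

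Promoter sequences are given for 4 genes that show how Tcf1 peaks, H3K4me3 and a Tcf motif fell at different promoters. Each is 300 bases from RefSeq (GRCm38.p6), 250 before the transcription start site (TSS) and 50 from it on, on the strand of the gene. Capitals mark matches to a Tcf/Lef core motif, CTTTGA or CTTTGT followed by A or T, which gives the forms CTTTGAA and CTTTGAT of the one and the forms CTTTGTA and then CTTTGTT of the other, searched on both strands. Axin2 is shown because a WT Tcf1 peak covers the whole window, Rnf43 because its window carries H3K4me3 without a Tcf1 peak, and Sp5 and Dkk1 because they hold the motif without a peak of either kind.
Axin2, chr11:108920099-108920398, plus strand: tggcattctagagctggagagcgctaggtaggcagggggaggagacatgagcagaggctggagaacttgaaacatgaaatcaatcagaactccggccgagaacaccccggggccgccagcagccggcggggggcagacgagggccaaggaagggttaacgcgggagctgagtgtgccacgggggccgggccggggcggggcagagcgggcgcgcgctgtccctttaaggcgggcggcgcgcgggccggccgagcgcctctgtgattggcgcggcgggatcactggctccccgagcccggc
Rnf43, chr11:87662837-87663136, plus strand: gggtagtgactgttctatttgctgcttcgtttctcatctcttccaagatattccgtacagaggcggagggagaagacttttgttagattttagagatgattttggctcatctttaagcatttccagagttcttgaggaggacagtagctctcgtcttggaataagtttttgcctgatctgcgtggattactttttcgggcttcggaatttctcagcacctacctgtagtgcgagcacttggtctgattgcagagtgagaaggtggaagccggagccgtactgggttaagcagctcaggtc
Sp5, chr2:70474673-70474972, plus strand: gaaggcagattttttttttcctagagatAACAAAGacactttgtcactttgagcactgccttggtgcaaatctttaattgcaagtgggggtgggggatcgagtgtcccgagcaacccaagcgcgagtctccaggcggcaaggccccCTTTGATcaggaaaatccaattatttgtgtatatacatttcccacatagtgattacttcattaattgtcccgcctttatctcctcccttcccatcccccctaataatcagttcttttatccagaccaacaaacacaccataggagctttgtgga
Dkk1, chr19:30549447-30549746, minus strand: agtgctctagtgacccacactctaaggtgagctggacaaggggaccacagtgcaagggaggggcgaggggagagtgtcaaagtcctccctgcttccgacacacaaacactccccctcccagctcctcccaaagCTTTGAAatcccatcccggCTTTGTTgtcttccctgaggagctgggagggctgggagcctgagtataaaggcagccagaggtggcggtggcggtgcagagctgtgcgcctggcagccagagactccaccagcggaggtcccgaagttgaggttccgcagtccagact

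The reference table held 8 windows for 6 of the 10 genes, and 3 of the 8 windows held the motif. Of all 32851 windows of the same length, 5544 (16.9%) held it at least 1 time and 637 (1.94%) at least 2 times. Sp5 and Dkk1 had 2 matches each. In Sp5 they begin at -222 (minus strand) and -104 (plus strand) from the TSS, and in Dkk1 at -117 and -98 (both plus strand). The third window with a match, at -202, was that of the inner TSS of Tnfrsf19. The windows of Axin2 and Nkd1 and both windows of Rnf43 had 0 matches. That of Nkd1 was also of an inner TSS, and the 5′ end of Nkd1, which carried H3K4me3, had no window and was not searched. Only the Axin2 window had a Tcf1 peak, so these windows cannot show whether the motif and the peaks go together. These letters were searched in 300 bases only, and the rest of each peak was not searched.

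The windows also differed in base composition. The Axin2 window was 70.0% G and C with 31 CpG pairs, a ratio of observed to expected CpG of 0.89, higher than in 86.3% of all windows. Those of Rnf43 (the upstream TSS), Sp5 and Dkk1 had ratios of 0.63, 0.40 and 0.33, against a median of 0.38 over all windows.

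The question put to the Tcf1 libraries was where the antibody enriched DNA near these genes in cells with and without its target. In KO, 1 of the 10 genes (Nkd1) had a Tcf1 peak in the gene or within 50 kb. In WT, 5 did (Axin2, Nkd1, Lgr5, Tnfrsf19 and Rnf43). Over all genes the shares were 20.6% for KO peaks and 4.39% for WT peaks. None of the 5 WT peaks overlapped a KO peak, nor did the KO peak overlap a WT peak. That was the usual outcome, since 751 of all 866 WT peaks and 5024 of all 5139 KO peaks overlapped no peak of the other genotype. KO peaks that overlap no WT peak lay near 20.1% of all genes, and WT peaks that overlap no KO peak near 3.87%. The count of 1 gene in KO was near its background. That of 5 genes in WT was above its own, a description and no independent support, since the genes were listed with earlier results of these data known. Within 10 kb, 0 genes had a KO peak (9.17% of all genes, or 8.97% for peaks called in KO alone) and 4 had a WT peak (2.06%, or 1.81% for peaks called in WT alone). Within 100 kb, 4 genes had a KO peak (32.4% of all genes), of which 3 had a peak called in KO alone (31.8%), and 5 had a WT peak called in WT alone (6.51%, or 7.36% for any WT peak). The genes were longer than most, from 2.80 to 169 kb with a median of 52.8 kb against 17.2 kb over all genes, and a longer gene spans more sequence in which a peak can fall.

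The same shares were taken for strong peaks. With a score of at least 100, 0 of the 10 genes had a KO peak, against 1.22% of all genes (0.818% for peaks called in KO alone). In WT 4 genes had such a peak (Axin2, Nkd1, Lgr5 and Tnfrsf19), against 0.58% of all genes, and each was called in WT alone, against 0.315%. The WT list held 43 such peaks that overlap no KO peak. The KO count of 0 was near its background. The WT count of 4 is again a description and no independent support, as the genes were listed with earlier results known.

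**Figure D1:**
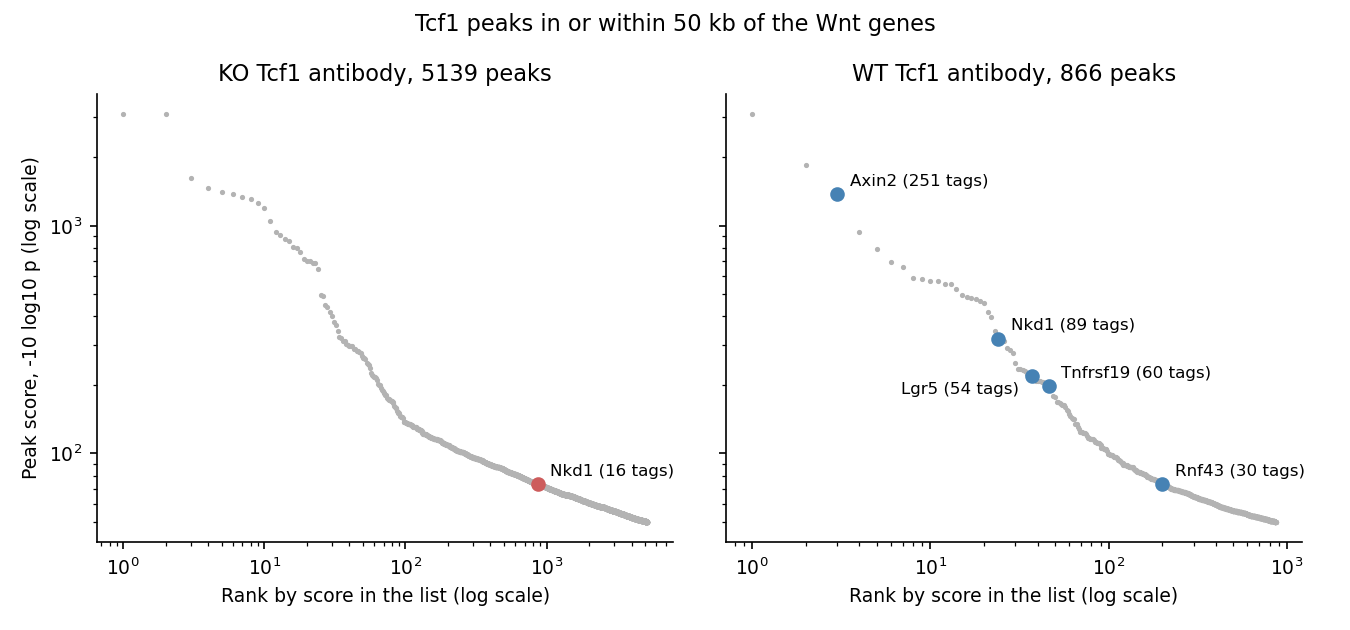
Score of every Tcf1 peak (vertical, -10 log10 p, log scale) against its rank in the list (horizontal, log scale), in KO (left) and WT (right). Coloured points are the peaks in or within 50 kb of the Wnt genes, 1 in KO at rank 868 of 5139 and 5 in WT, of which 4 are at rank 46 or better of 866.

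Axin2 encodes a scaffold of the complex that destroys beta-catenin, and is the most general of the feedback inhibitors. No Tcf1 peak was called in or within 50 kb of it in KO. In WT a peak lay at chr11:108920078-108921595, over the TSS at 108920349 (plus strand; gene at chr11:108917828-108950783), with 251 tags (interval 221 to 284). It ranked 3 of 866 by score (1378) and 3 by fold enrichment (21.8), but 46 by tags, and its FDR was 33.3%. The FDR did not follow the score here, since WT peaks of lower score at Nkd1, Lgr5 and Tnfrsf19 had FDRs of 4.17% to 5.41%. The summit at Axin2 lay 0.063 kb past the TSS at 108920349, and 2.58 kb from the 5′ end of the longer gene model in RefSeq. The promoter window printed above thus lies wholly in the peak and ends just short of its summit. Both genotypes carried H3K4me3 over the same place.

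Nkd1 encodes an inhibitor that binds Dishevelled, the protein between the receptor and the destruction complex. Its peaks differed in place between the genotypes. The KO peak was at chr8:88488300-88488715, 32.6 kb upstream of the gene (chr8:88521342-88594887, plus strand), with 16 tags (interval 9.15 to 26.0), a score of 73.1 and an FDR of 100%. It ranked 868 of 5139. The WT peak was at chr8:88570515-88571105, inside the gene with its summit 49.4 kb from the 5′ end, with 89 tags (interval 71.5 to 110). It ranked 24 of 866, with a score of 319.7, a fold enrichment of 9.80 and an FDR of 4.17%. No H3K4me3 peak overlapped either.

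Lgr5 encodes a receptor for R-spondins, secreted proteins that raise Wnt signalling, and marks stem cells of the gut and hair follicle. No peak was called near it in KO. In WT a peak lay at chr10:115586337-115586973, inside the gene (chr10:115450314-115587780, minus strand) with its summit 1.16 kb past the TSS. It held 54 tags (interval 40.6 to 70.5) and ranked 37 of 866, with a score of 220.0, a fold enrichment of 13.8 and an FDR of 5.41%. Although the peak is this close to the TSS, no H3K4me3 peak was called in or within 50 kb of Lgr5 in either genotype.

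Tnfrsf19 encodes a receptor of the TNF receptor family that is, like Lgr5, found in epithelial stem cells. No peak was called near it in KO. In WT a peak lay at chr14:61056398-61057023, 9.54 kb upstream of the gene (chr14:60963834-61046855, minus strand), with 60 tags (interval 45.8 to 77.2). It ranked 46 of 866, with a score of 197.4, a fold enrichment of 11.6 and an FDR of 4.35%. The gene had no H3K4me3 peak within 50 kb in either genotype, as at Lgr5.

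Rnf43 and Znrf3 encode related ubiquitin ligases of the cell surface that remove Frizzled receptors. Neither had a KO peak within 50 kb. In WT, Rnf43 had a weak peak at chr11:87617020-87617564, 45.5 kb upstream of the gene (chr11:87663087-87735539, plus strand), with 30 tags (interval 20.2 to 42.8), a score of 73.2, rank 200 of 866 and an FDR of 15.0%. The summit of that peak lay 0.101 kb from a TSS of another gene, Hsf5, so its count under Rnf43 rests on the distance of 50 kb alone. Znrf3 (chr11:5276329-5444847, minus strand) had no peak within 50 kb in WT either.

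No Tcf1 peak was called within 50 kb in either genotype at Apcdd1, which encodes a membrane inhibitor of Wnt signalling (chr18:62922327-62953815, plus strand), at Notum, which encodes an enzyme that strips the lipid from Wnt proteins (chr11:120653788-120661193), at Sp5, a zinc finger transcription factor gene (chr2:70474923-70477726, plus strand), or at Dkk1, which encodes a secreted blocker of the Lrp5 and Lrp6 co-receptors (chr19:30545876-30549496, minus strand). Sp5 and Dkk1 are the genes whose promoter windows held 2 motif matches each. Of the 5 WT peaks, the 4 of higher score had 54 to 251 tags, against a median of 21 tags over the 751 WT peaks that overlap no KO peak. The KO peak at Nkd1 had 16 tags, against a median of 14 tags over the 5024 KO peaks that overlap no WT peak. In the KO list 4662 of 5139 peaks had fewer than the 30 tags of the weakest of the 5 WT peaks. The median FDR was 96.9% in the KO list and 26.6% in the WT list. Depth is unknown in both libraries, so these tags are not comparable between them, and whether a weaker KO signal lay at these sites was not tested. The peaks nearest to the limit of 50 kb were the WT peak of Rnf43 inside it, at 45.5 kb, and the KO and WT peaks beyond Axin2 outside it, at 60.8 and 60.7 kb.

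**Figure D2:**
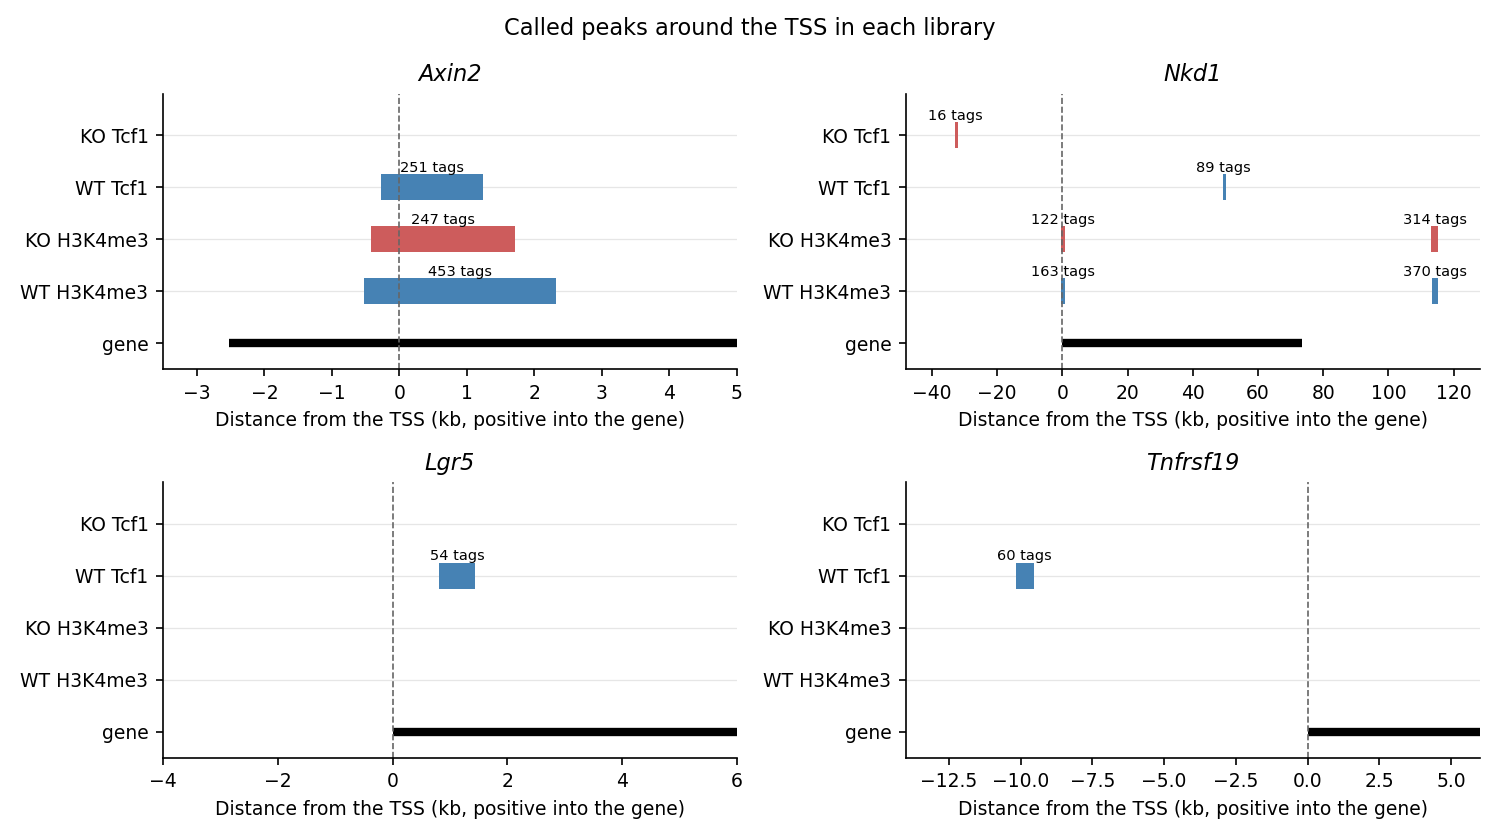
Called peaks by distance from the TSS (kb, horizontal) in the KO and WT libraries of each antibody, for Axin2, Nkd1, Lgr5 and Tnfrsf19, with the gene as a black bar and tags printed over each peak. At Axin2 the WT Tcf1 peak of 251 tags sits within the H3K4me3 peaks of both genotypes, while the WT Tcf1 peaks of the other genes meet no H3K4me3 peak.

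The H3K4me3 libraries were then compared at the TSS of the 10 genes, taking peaks within 1 kb of a TSS. In KO 4 of the 10 genes were marked (Axin2, Nkd1, Rnf43 and Znrf3), and in WT 5, the same 4 and Apcdd1. Over all 21735 genes whose mark could be decided, 47.8% were marked in KO and 53.6% in WT, so the genes were marked about as often as others. Marks in both genotypes were seen at 47.6% of all genes, in WT alone at 5.99% and in KO alone at 0.166%. Lgr5, Tnfrsf19, Notum, Sp5 and Dkk1 were marked in neither genotype, as were 46.2% of all genes. No strand was found for Notum, but no H3K4me3 peak came within 1 kb of either of its ends. Genes marked in both genotypes had a median log2 ratio of tags, KO over WT, of 0.26 (a fold of 1.20), and ratios below are given relative to it. Their SD across genes was 0.30. Fewer cells with the mark and less mark per cell cannot be told apart in such pools of cells.

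At Axin2, the KO peak held 247 tags (interval 217 to 280) over 2143 bp, and the WT peak 453 tags (interval 412 to 497) over 2852 bp. The KO peak lay at chr11:108919925-108922067 and the WT peak at chr11:108919821-108922672, so the WT peak was wider on both sides. The log2 ratio was -1.14 (counting interval -1.37 to -0.91), and 90 of the 10349 genes marked in both had a lower ratio. A ratio of -1 or lower was seen at 1.4% of these genes and a ratio of 1 or higher at 0.116%. Per kb of peak the levels were 115 tags in KO and 159 in WT, and the ratio was -0.78, above that of 1.80% of genes. The authors' score was 269.0 in KO and 2607 in WT. Enrichment also differed between the whole H3K4me3 lists, with a median fold of 18.4 in KO and 30.8 in WT (median scores 1950 and 2040). Znrf3, at similar tags in both, had folds of 21.2 in KO and 76.2 in WT. A lower KO score or fold is thus not by itself a difference at Axin2. Of 2427 genes with 350 to 550 WT tags, a range chosen after the values were seen, 26 (1.07%) had a ratio as low as that of Axin2 or lower.

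At Nkd1, the KO peak held 122 tags (interval 101 to 146) over 1391 bp, and the WT peak 163 tags (interval 139 to 190) over 1335 bp. Both covered the 5′ end of the gene, not the inner TSS of the RefSeq window at 88527633. The log2 ratio was -0.68 (counting interval -1.03 to -0.33) by tags and -0.80 per kb of peak. Ratios of -0.5 or lower were seen at 6.46% of genes marked in both by tags, and at 5.41% per kb. The KO peak was close to the limit of what was called, with a score of 61.1 and an FDR of 19.3%. In WT the score was 878.7 and the FDR 0.01%. The lower enrichment of the whole KO list, given for Axin2, applies to these scores too. Of the 11074 KO peaks, 387 had a lower score. Over 627 genes with 130 to 200 WT tags, a range also chosen after the values were seen, the ratios had a median of -0.09 and an SD of 0.42, so Nkd1 lay less far from genes of its own level than from all genes.

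At Rnf43, the KO peak held 1007 tags (interval 946 to 1070) over 4988 bp, and the WT peak 601 tags (interval 554 to 651) over 4875 bp. It was the only 1 of the 4 genes with a ratio above 0, at 0.48 (counting interval 0.33 to 0.63) by tags and 0.39 per kb, higher than at 98.5% and 95.6% of genes. Ratios of 0.5 or higher, which Rnf43 just missed, were seen at 1.3% of genes by tags and 1.52% per kb. Peaks of both genotypes had nearly the same bounds, but the summit lay 1.57 kb from the nearest listed TSS in KO, against 0.014 kb in WT. Znrf3, the related ligase, held 1066 tags (interval 1000 to 1130) over 2928 bp in KO and 995 tags (interval 934 to 1060) over 2866 bp in WT. Its ratio was -0.16 (counting interval -0.29 to -0.04) relative to the median gene and 0.10 before that centring, so its direction rests on the scaling.

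Apcdd1 had no KO peak within 1 kb of the TSS, against a WT peak of 100 tags (interval 81.4 to 122) over 1132 bp (chr18:62921979-62923110), or 88.3 tags per kb, with a score of 414.4. Of genes marked in WT, 11.2% had no KO peak, and of the 504 genes with 80 to 120 WT tags, a range chosen after the values were seen, 320 (63.5%) had none. Loss of the call was thus the more common outcome at this level. Of KO peaks 10.8% were below 88.3 tags per kb, against 28.0% of WT peaks, on tags not scaled to depth. Whether a weaker KO signal lay at Apcdd1 was not tested.

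Of the 4 genes marked in both, 3 had a ratio below 0 and 1 above, against 49.9% of genes on each side, and 2 had -0.5 or lower. The counting interval lay wholly below 0 at 3 (22.2% of all genes) and wholly above 0 at 1 (19.1%). With 4 genes these counts say little. Their median was -0.42, against 0 over all genes by construction.

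**Figure D3:**
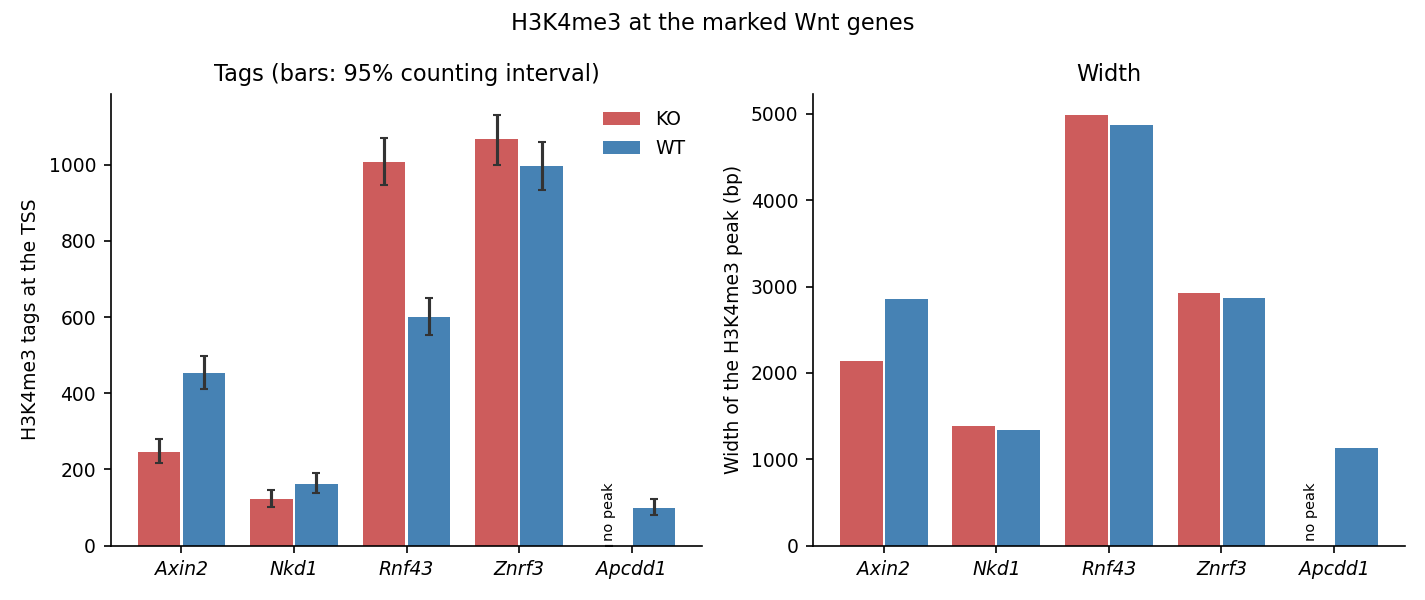
H3K4me3 tags (left, bars with 95% counting intervals) and peak width in bp (right) at the TSS of the 5 marked genes, KO beside WT. Axin2 has 247 tags in KO and 453 in WT, Rnf43 has 1007 in KO and 601 in WT, and Apcdd1 has no KO peak.

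**Figure D4:**
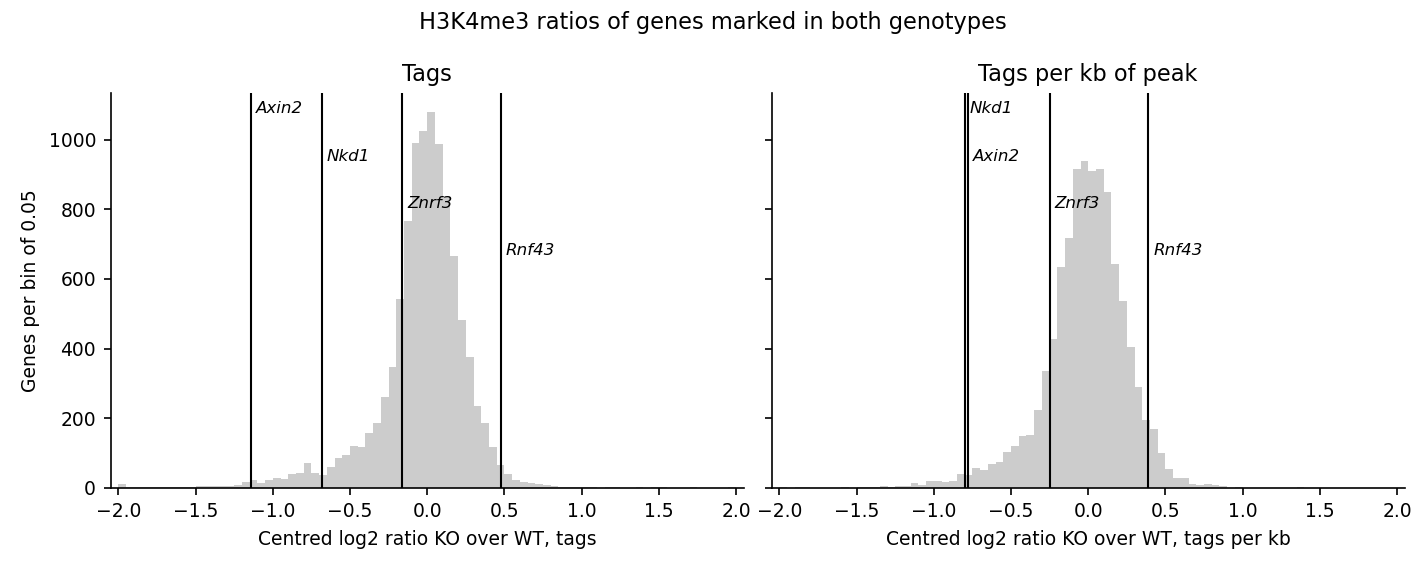
Number of genes marked in both genotypes (vertical, bins of 0.05) by centred log2 ratio of KO over WT (horizontal), for tags (left) and tags per kb of peak (right), with values beyond 2 in size put in the end bins. Lines mark the 4 Wnt genes, with Axin2 at -1.14 by tags and -0.78 per kb and Rnf43 at 0.48 and 0.39.

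Ratios of neighbouring genes were also read. Only neighbours marked in both genotypes have a ratio, so a neighbour with no KO peak cannot appear here, and whether a stretch of chromosome differed was not tested. Tcf7, the deleted gene, lies on chromosome 11, as do 4 of the 10 genes (Axin2, Rnf43, Znrf3 and Notum), from 35.4 Mb (Rnf43) to 68.4 Mb (Notum) away. The 881 genes of chromosome 11 marked in both genotypes had a median ratio of 0.04 with an SD of 0.31. The nearest marked genes on either side of Axin2 were Apoh and Prkca, which shared their peaks at a ratio of 0.04, and Gna13 and Slc16a6, at -0.01 and 0.03. These 4 genes lie 412 to 574 kb away. Nearer to Axin2, 60.7 kb from it, an H3K4me3 peak of 715 tags was called in WT and none in KO. Next to Rnf43, Mtmr4 and Tex14 had ratios of 0.18 and 0.34, and Supt4a and Dynll2 of -0.12 and -0.10. Next to Znrf3, Emid1 had a ratio of 0.65 by tags but -0.37 per kb, and Xbp1 and Ccdc117 of -0.01 and -0.03. Kremen1, which encodes a receptor for Dkk proteins, had 620 tags in KO and 576 in WT, a ratio of -0.16 like that of Znrf3. Next to Nkd1, Snx20, 31.7 kb beyond its end, was also lower in KO, with 314 tags in KO and 370 in WT and a ratio of -0.50 (counting interval -0.72 to -0.28), whereas Brd7, Adcy7 and Cyld had ratios from -0.15 to 0.22.

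The unmarked genes lay in different surroundings. Around Dkk1 no H3K4me3 peak was called within 50 kb in either genotype, as around Lgr5 and Tnfrsf19. Notum, with no peak of its own, had 4 KO peaks and 6 WT peaks within 50 kb, among them peaks at the TSS of Sirt7, Mafg and Aspscr1. Sp5 had 1 peak in each genotype, at different places, with 31 tags and an FDR of 28.7% in KO, 15.3 kb upstream, and 38 tags and an FDR of 0.91% in WT, 31.1 kb downstream. Rnf43 had 3 KO peaks and 7 WT peaks within 50 kb, and 3 of the WT peaks overlapped no KO peak. These 3 held 90 tags 23.3 kb upstream (chr11:87638579-87639830), 78 tags near the 3′ end of the gene (chr11:87733325-87734980) and 133 tags 7.67 kb downstream (chr11:87743205-87746074). All were below the median of 365 tags in the WT list, which is longer than the KO list. Notum also had WT peaks, of 221 and 75 tags, that overlapped no KO peak. The share of all WT H3K4me3 peaks that overlap no KO peak is not given here, so these counts are not read as particular to the genes.

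The Tcf1 peak and the H3K4me3 difference were then set side by side. Peaks called in WT alone covered a TSS of 23 genes, of which 17 were marked by H3K4me3 in both genotypes, with ratios from -1.14 to 0.38 and a median of -0.11. The lowest by tags was that of Axin2, but per kb of peak Ism2 was lower (-1.01, against -0.78 at Axin2). Among the 9 such genes with a Tcf1 score of at least 100, all marked in both, the median was 0.02 by tags, with Bcs1l and Zfp142 sharing their peaks, and Ism2 (-0.94) was the other gene below -0.5. The other 7 genes included Cyb5r4 (0.02) and Zfp703 (-0.03), so a Tcf1 peak over the TSS went with values on both sides of 0. Rnf43, the gene of highest ratio among the Wnt genes, had no Tcf1 peak within 10 kb.

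The rest of the Wnt pathway was described from a list of 97 other genes, also drawn up with earlier results of these data known. Counts on this list are thus a description and no independent support. In KO 19 of the 97 (19.6%) had a Tcf1 peak within 50 kb, against 20.6% of all genes, and in WT 6 (6.19%), against 4.39%. Each of the 6 had a WT peak that overlapped no KO peak, as did 751 of the 866 peaks in the WT list. At 4 of the 97 (4.12%), against 0.315% of all genes, a peak called in WT alone had a score of at least 100, namely at Tcf7 itself (123 tags), Lef1, of the same family as Tcf7 (113 tags), Zfp703 (109 tags) and Fgf18, a growth factor gene (85 tags). The other 2, at the ligand gene Wnt3a and the receptor gene Ror2, had 30 and 39 tags.

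For H3K4me3, the mark could be decided for 95 of the 97 genes. In KO 46.3% of them were marked, against 47.8% of all genes, and in WT 64.2%, against 53.6%. The list had 18 genes marked in WT alone (29.5% of those marked in WT, against 11.2% over all genes), with 26 to 225 WT tags and a median of 103.5. Over all genes with 80 to 120 WT tags, the range used for Apcdd1, 63.5% had no KO peak. Whether the share on the list exceeds that of genes of like level was not tested. The 18 genes included the Frizzled genes Fzd1, Fzd2, Fzd3 and Fzd9, the co-receptor gene Lrp5 (114 tags), the corepressor gene Tle1 (225 tags) and Nkd2 (60 tags), the relative of Nkd1. Among the 18 was also Fgf18 (118 tags), whose WT Tcf1 peak lay 0.146 kb from the gene. The gene marked in KO alone was Rspo2 (43 tags). Of 43 genes marked in both, 31 (72.1%) had a ratio below 0 and 12 (27.9%) above, against 49.9% of all genes on each side. Their median was -0.11 by tags and -0.13 per kb, with an SD of 0.36. Ratios of -0.5 or lower were seen at 6 of the 43 (14.0%), against 6.46% of all genes.

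The lowest ratios on that list, with at least 100 tags in 1 library, were at the receptor gene Fzd7, with 232 tags in KO and 591 in WT (-1.61), at Fzd6 with 147 in KO and 262 in WT (-1.10), at the beta-catenin partner gene Bcl9 with 371 in KO and 548 in WT (-0.83), and at the cyclin gene Ccnd1, with 106 in KO and 150 in WT (-0.76). Tcf7l1, of the Tcf/Lef family, was next at nearly the same ratio, with 178 in KO and 251 in WT (-0.76). Per kb of peak they were -1.32, -0.98, -0.19, -0.40 and -1.02, in that order, so that of Bcl9 lay mostly in the width of its peak, 1988 bp in KO and 3221 bp in WT. The highest were at Myc, with 2949 tags in KO and 2125 in WT (0.21), Tcf7l2 (0.17), Id2 (0.14) and Lgr4 (0.13). The cytoplasmic genes, which include Axin1 (-0.05), Apc (0.03), Gsk3b (-0.01) and Ctnnb1, the gene of beta-catenin (-0.07), had a median of -0.06 over 14 marked genes. Axin2 was thus lower than its relative Axin1, which had 1023 tags in KO and 885 in WT.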

How the data were processed

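Peak lists for 4 libraries were analysed, and the input libraries were not analysed here. Aligner and peak caller were Bowtie2 2.1.0 and MACS 1.4, and builds mm10, GRCm38 and GRCh37 are listed, per the submitters' processing notes. Their settings and any control track are not given in the sources used here. Per the file headers, each deposited peak has a count of tags (not scaled to depth), a score of 10 times negative log10 p (ceiling about 3100), a fold enrichment as a ratio over background, and an FDR in percent. Starts counted from 0 and were converted. Listed gene features had a start or end within 100 bp of RefSeq (GRCm38.p6) in 91.1% of 12985 cases, so positions were read as that build.

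Tcf1 peaks were assigned to every gene they overlap or lie within 50 kb of, and were shared if they overlapped by at least 1 bp. TSSs were RefSeq promoter starts and the 5′ ends of RefSeq and listed Ensembl genes. Strand came from RefSeq for 17492 genes and from the lists for 2510. Of the 1885 genes of unknown strand, 152 could not be called marked or not, since a peak lay near an end, and are absent from H3K4me3 counts. H3K4me3 tags are sums over peaks within 1 kb of a TSS. A sum over separately called peaks moves with their width, so tags per kb are given too. Tag intervals are exact Poisson and ratio intervals are conditional binomial. PCR copies were not identified. No test was made, with 1 library a group. The ratio and its interval were tried on simulated counts with counting error only. Peak calling, peak width and spread between replicates were not simulated. The named genes are the 10 genes. Of the other Wnt genes, those with a WT-only peak of score at least 100, the 4 lowest and the 4 highest ratios with at least 100 tags were named by rule, and the others after their values were seen. Members and lists were chosen with earlier results of these data known. Software was matplotlib 3.10.9, scipy 1.17.1, numpy 2.4.6, pandas 2.3.3 and Python 3.11.15.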

Additional observations from a re-analysis of the deposited data

How the results depend on the processing

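Of 100 values recomputed under other settings, 77 kept their direction and stayed within 1.5 times or the counting interval. Many of these are not separate checks. Counts for WT peaks and for peaks called in WT alone were the same, and some counts were 0 under each setting. Other TSS windows returned the same peak at the 4 genes marked in both. The count of genes near a WT Tcf1 peak was 4 or 5 of 10 under each setting run. The KO count of 1 gene came to 0 at 10 kb, with scores of at least 100 and with lists of equal length, and to 4 at 100 kb (3 for peaks called in KO alone). Among the other Wnt pathway genes the KO count of 19 came to 6 at 10 kb and 0 with scores of at least 100, and the WT count of 6 to 12 at 100 kb. With H3K4me3 scores of at least 100, 2 of the 10 genes were marked in WT alone, since the KO peak at Nkd1 dropped out. Over all genes those marked in KO alone numbered 15 with that score and 146 with lists of equal length, against 36, and those in WT alone 500 with lists of equal length, against 1303. The Znrf3 ratio of -0.16 turned to 0.10 without centring, which by construction adds the median of 0.26, and Axin2 came to -0.88 and Rnf43 to 0.74. Axin2 was -0.78 per kb of peak, and the settings run other than these moved it by less than its counting interval. With the shorter motifs CTTTGA and CTTTGT, 31.2% of all promoter windows held a match, the same 3 windows of the Wnt genes did, and that of Axin2 again had 0. No paired analysis was possible because each group held 1 library, and no library could be left out. The motif was not searched in peaks, for which no genome was used here.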

Other observations

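Beyond 50 kb, further peaks lay near these genes. A region downstream of Axin2 was called with the Tcf1 antibody in both genotypes. In KO it held 803 tags at a fold enrichment of 5.75 (chr11:109011584-109012409) and ranked 6 by score, with an FDR of 16.7%. In WT it held 790 tags at 4.12 (chr11:109011492-109012316) and ranked 7 by score, with an FDR of 14.3%. Because the region was also called in KO, its signal cannot be read as Tcf1 binding from these lists. The H3K4me3 antibody gave a peak there in WT, with 715 tags and a fold enrichment of 5.95, and none in KO. These tags exceed those of the Axin2 promoter, at a lower fold enrichment.

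A WT Tcf1 peak of 32 tags, with no KO peak, lay 66.9 kb upstream of Nkd1 (chr8:88453912-88454477). It overlapped a WT H3K4me3 peak of 52 tags (chr8:88453744-88454909) that overlapped no KO peak. KO Tcf1 peaks of 20 and 14 tags lay 80.4 kb beyond Apcdd1 and 79.9 kb before Sp5, with FDRs of 67.5% and 100%. No peak of any of the 4 libraries was called within 100 kb of Dkk1 or, for H3K4me3, of Tnfrsf19.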
